A study of Homo sapiens with 6 samples.

Results

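The autophagy and lysosome genes described here are 36 protein-coding genes, fixed as a list of symbols and found in the count files through GENCODE 44. They were 36 of the 60675 gene identifiers in the files, and all 36 had enough counts to be tested. The data are RNA sequencing of MDA-MB-231 cells, an established line from a triple-negative breast cancer. The study asked how vitamin C changes the transcriptome of these cells. Control cells (3 libraries) received no vitamin C, and treated cells (3 libraries) received 100 μM vitamin C, given as sodium ascorbate, for 3 days. Both groups are the same cell line in multiwell plates, with fresh medium at each daily dose. The study describes the 3 libraries of a group as wells, and the sources used here do not tie them to separate experiments, so the p-values measure the spread between these libraries, which may be technical.

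Autophagy encloses cytoplasm in a double membrane, the autophagosome, and delivers it to the lysosome, where acid hydrolases break it down. A kinase complex around ULK1 and ULK2 starts the process, a lipid kinase complex around BECN1 marks the membrane, and a conjugation system attaches small ubiquitin-like proteins of the ATG8 family to it. Cargo receptors bind these proteins. The transcription factors TFEB and TFE3 bind the E-box CACGTG, which is found in the promoters of many lysosomal genes. Much of autophagy is controlled by phosphorylation and by protein turnover, neither of which RNA sequencing measures.

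The E-box was searched in the RefSeq promoter windows (GRCh38.p14, 250 bases before to 50 after the gene start). CACGTG is its own reverse complement, so 1 search covers both strands. Of the 31 members with a window, 5 (16.1%) held CACGTG, against 2395 of 27305 genes (8.77%). The longer TCACGTG, which contains it and was searched on both strands, was in the same 5 windows and in 1226 genes (4.49%). In related lists described below, CACGTG was in 14.3% of further autophagy genes, 27.7% of further lysosomal genes and 23.3% of nutrient-sensing genes with a window. No difference between these shares was tested. The members CTSB, LAMP2, UVRAG, HEXA and RB1CC1 had no window. The E-box members are shown because they let a reader set the letters that TFEB and TFE3 are known to bind beside the measured values. Capitals mark CACGTG, and each sequence runs 5′ to 3′ on the strand of its gene.

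LAMP1, chr13:113297039-113297238, plus strand: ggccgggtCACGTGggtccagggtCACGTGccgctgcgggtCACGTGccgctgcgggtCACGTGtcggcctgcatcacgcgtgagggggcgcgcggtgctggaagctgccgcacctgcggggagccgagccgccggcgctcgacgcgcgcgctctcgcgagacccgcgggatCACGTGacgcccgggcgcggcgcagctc
MCOLN1, chr19:7522598-7522627, plus strand: gggctaccgggtCACGTGaccgaggcacag
CTSD, chr11:1763957-1763986, minus strand: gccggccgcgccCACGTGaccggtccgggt
ATG3, chr3:112561963-112561992, minus strand: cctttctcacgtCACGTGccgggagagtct
ATG14, chr14:55411834-55411863, minus strand: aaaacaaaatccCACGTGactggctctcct

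The LAMP1 stretch holds 5 copies and its whole window 6, and LAMP1 was the only 1 of the 27305 genes with 6 or more. MCOLN1 and ATG3 each hold a further copy that is not printed, at -41 and 5 relative to the gene start. A match gives the letters in the window and is not evidence of binding. None of these 5 genes passed the test of vitamin C against control: the log2 fold change was 0.40 for MCOLN1, 0.23 for CTSD, 0.06 for ATG14, -0.15 for LAMP1 and -0.25 for ATG3.

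The gene counts were 17664345 to 22373591 per control library and 13434130 to 19553914 per vitamin C library. The share of unmapped read pairs was 24.2% to 34.4% in control libraries and 24.7% to 49.5% in vitamin C libraries, so depth and mapping moved in part with the treatment, and their part in the results was not tested beyond thinning all libraries to 1 depth. VIM (1186 to 1316 CPM, the count scaled to library size) and CD44 (930.2 to 1252 CPM), mesenchymal markers of this line, were high in every library, and a further such gene, FN1, was at 259 to 614 CPM. ESR1, the estrogen receptor gene, had 0 counts in all 6 libraries, which in the shallowest allows up to 0.223 CPM, and PGR had 0 to 4 counts. ERBB2, the gene of the third receptor that the term triple-negative refers to, was at 38.8 to 50.1 CPM. The leukocyte marker PTPRC had 0 to 2 counts and the endothelial marker PECAM1 10 to 43. In RNA from whole cultures, fewer cells expressing a gene and less RNA per cell cannot be told apart.

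No autophagy or lysosome gene passed the edgeR quasi-likelihood test at an adjusted p of 0.05 after vitamin C: 0 of 36 were called higher and 0 lower, while over all 15261 genes tested 7.08% were called, 3.60% higher and 3.48% lower. At an unadjusted p under 0.05 there were 6 members higher and 4 lower, 27.8% of the list against 27.4% of all genes (14.3% higher and 13.1% lower). DESeq2 called 2 members, TAX1BP1 higher and ATG3 lower, where it called 10.7% of the genes it tested (4.35% higher and 6.36% lower), and limma-voom called 0. Both edgeR and DESeq2 called 0 members and 6.34% of all genes (2.98% higher and 3.36% lower). Libraries of the groups did not overlap for 12 members (4 higher and 8 lower in vitamin C), or 33.3%, against 32.3% of all genes (15.7% higher and 16.6% lower). Taken in either direction, this last share was close to that of all genes. Among the members more lay lower than higher, and no test of that split was made.

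The fold changes were small, and the data bounded them closely. The median log2 fold change of the members was -0.01, beside 0.02 for all genes, with 17 estimates above 0 and 19 below, and a range from -0.26 for ATG9A to 0.55 for TFEB. The median standard error was 0.09. For 17 members the whole 95% interval lay within a 1.25-fold change in either direction, for 31 within 1.5-fold and for 35 within 2-fold. The exception at 2-fold was TFEB, with an upper bound of 1.03 on the log2 scale. The interval included 0 for 26 members. The summed level of the 36 genes was 2846, 2964 and 2984 CPM in the control libraries and 3010, 2874 and 3020 CPM in the vitamin C libraries, and these ranges overlapped.

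**Figure D1:**
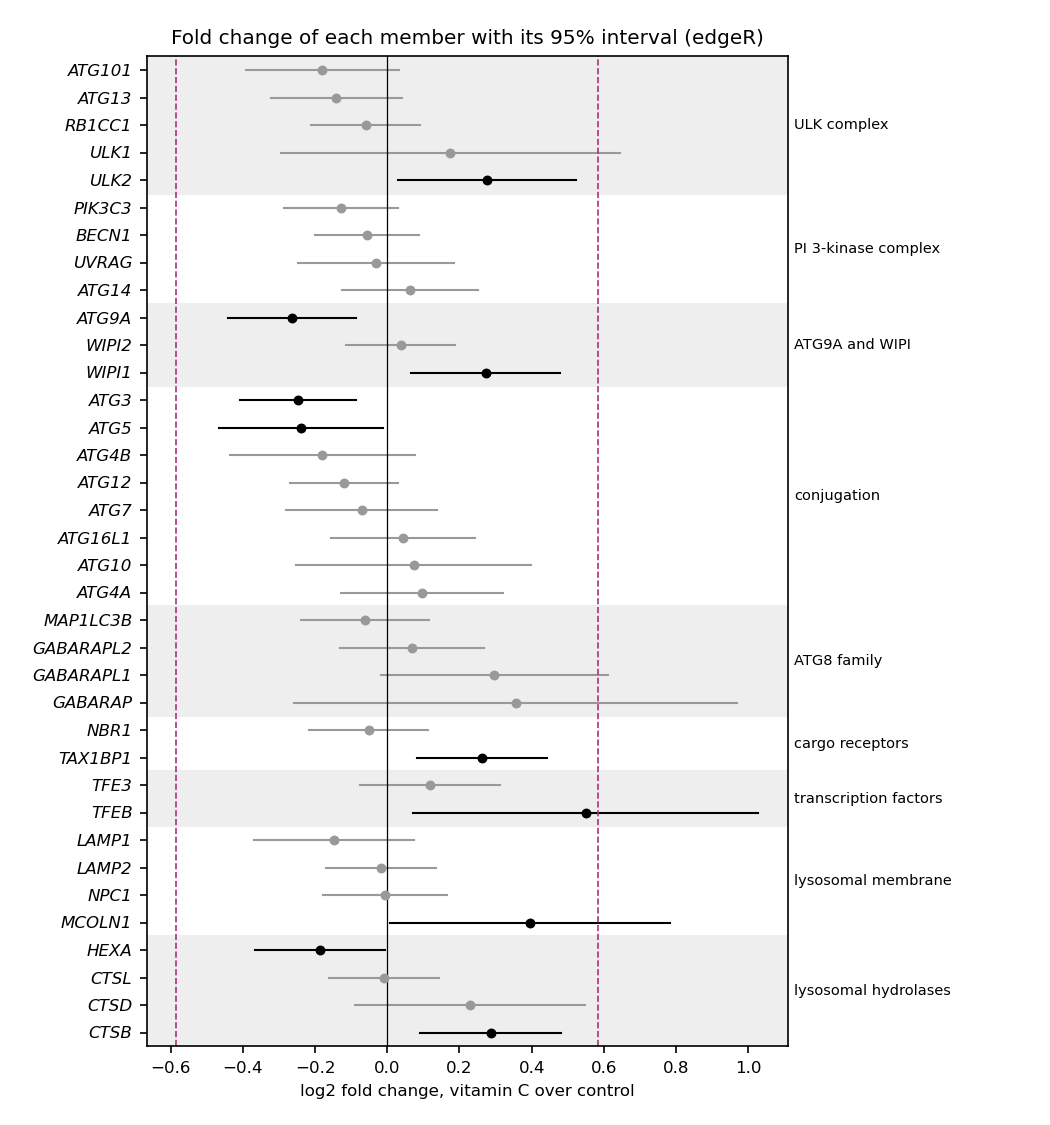
Log2 fold change (vitamin C over control, x axis) of each of the 36 members by role, with the edgeR estimate as a point and its 95% interval as a line; black marks the 10 with an unadjusted p under 0.05 and dashed lines mark a 1.5-fold change. The intervals of 31 members lie between the dashed lines, and that of TFEB reaches farthest, to 1.03.

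The genes differed far more between each other than between the groups. Per kilobase of transcript, over both groups, the level ran from 0.565 CPM for ULK1 to 121 CPM for TAX1BP1, with a median of 16.0. After TAX1BP1 came BECN1 at 74.5, ATG3 at 74.1, CTSL at 70.0 and NBR1 at 60.9 CPM per kb. TFEB at 1.52, GABARAP at 1.22 and ULK1 were the lowest. The level of GABARAP is uncertain, because it shares 48.2% of its exon bases with other genes. A mean of at least 100 counts per library stood behind 33 of the 36 genes. GABARAP (27.8 counts on average), ULK1 (53.7) and TFEB (62.8) were the exceptions.

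**Figure D2:**
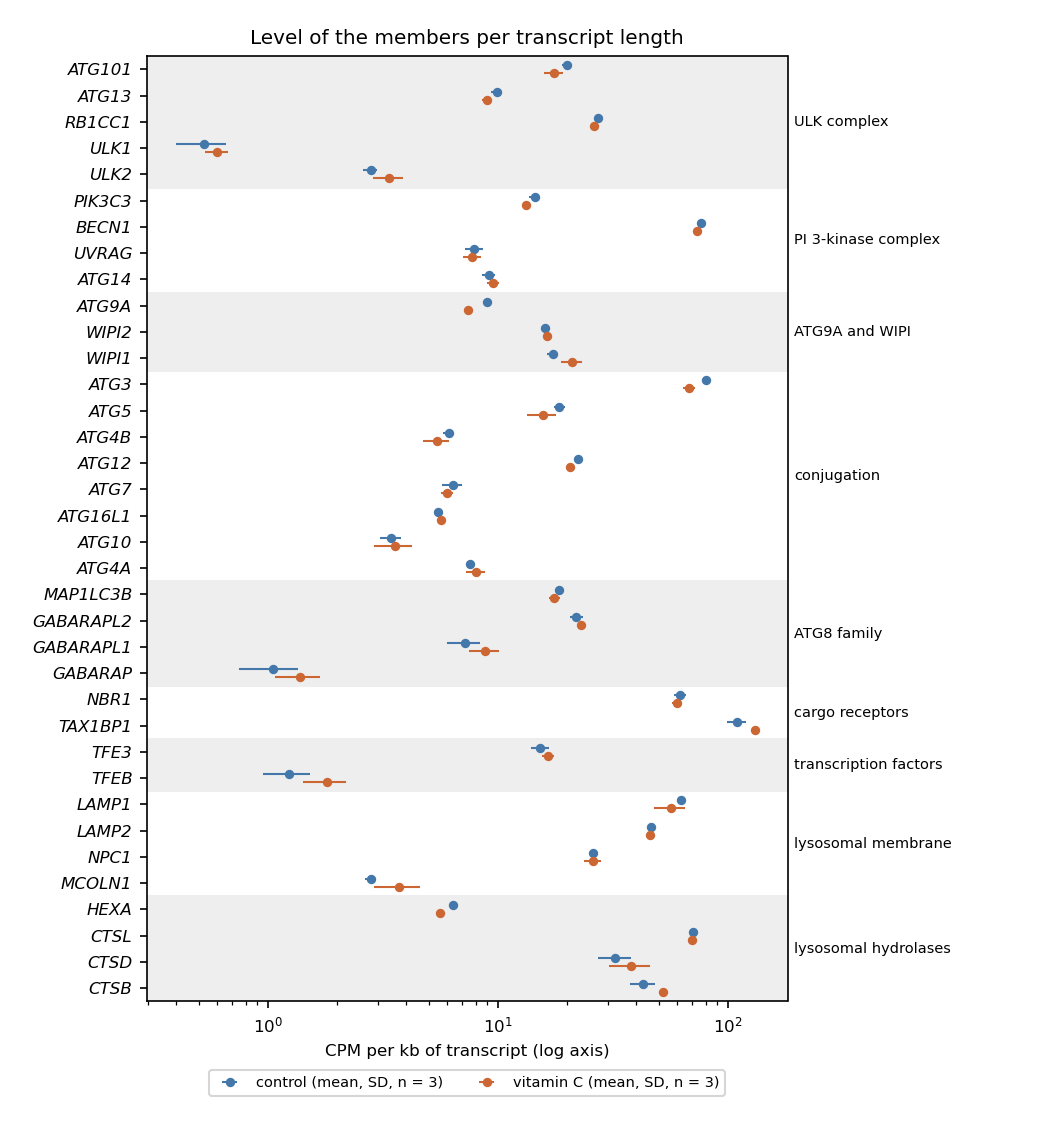
Level of each member in CPM per kb of transcript (log axis), as mean and SD over the 3 control and the 3 vitamin C libraries, grouped by role. The means of each gene in both groups lie close together, while genes range from ULK1 at the left to TAX1BP1 at the right.

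The initiation complex had 5 members, of which 0 passed. Its most abundant gene per length was RB1CC1 (chr8:52622458-52745843), which encodes the scaffold FIP200. RB1CC1 was at 173, 186 and 182 CPM in control libraries and 174, 168 and 178 CPM in vitamin C libraries. The groups overlapped, with a log2 fold change of -0.06 ± 0.07 (SE, n = 3 per group) and an edgeR adjusted p of 0.611. The kinase gene ULK2 (chr17:19770829-19867936) was at 23.7, 27.3 and 25.7 CPM against 27.5, 28.9 and 36.1 CPM. All 3 vitamin C libraries of ULK2 were above the controls, the lowest only just, and the last stood well above the other two. Its log2 fold change was 0.28 ± 0.11 (SE, n = 3 per group; edgeR adjusted p = 0.142), and 0.14 without the third vitamin C library. ULK1, the better known kinase of the pair, was the least abundant member per length, at 2.05 to 3.37 CPM in control and 2.96 to 3.62 CPM in vitamin C. The adaptor genes ATG13 and ATG101 had log2 fold changes of -0.14 and -0.18, and only for ATG101 (27.3 to 30.2 CPM against 22.4 to 26.6 CPM) did the groups not overlap. Genes on the opposite strand share 19.2% of the ATG101 exon bases.

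The lipid kinase complex makes phosphatidylinositol 3-phosphate on the forming membrane, and 0 of its 4 genes passed. BECN1 (chr17:42810134-42833350), the scaffold subunit, was at 160.2, 159 and 162 CPM in control libraries and 152, 157 and 154 CPM in vitamin C libraries. The groups of BECN1 did not overlap, but the gap was small, with a log2 fold change of -0.06 ± 0.07 (SE, n = 3 per group; edgeR adjusted p = 0.621). Other genes share 17.1% of the BECN1 exon bases and 20.8% of those of ATG14. PIK3C3, the catalytic subunit, also had groups that did not overlap (129 to 145 CPM against 121 to 127 CPM, log2 fold change -0.13). ATG14 and UVRAG define alternative forms of the complex, and both overlapped between groups, with log2 fold changes of 0.06 and -0.03.

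ATG9A and WIPI1, which act at the growing membrane, had estimates of opposite sign. ATG9A (chr2:219219380-219229717) encodes a lipid scramblase carried on vesicles. Its levels were 34.7, 33.9 and 32.4 CPM in control libraries and 28.1, 27.7 and 28.3 CPM in vitamin C libraries. Every vitamin C library was below every control, and the vitamin C libraries lay within 1 CPM of each other. The log2 fold change of -0.26 ± 0.08 (SE, n = 3 per group) had a 95% interval of -0.44 to -0.09 and an edgeR adjusted p of 0.0663. WIPI1 (chr17:68420948-68457513) encodes a reader of phosphatidylinositol 3-phosphate. It was at 31.4, 34.7 and 32.7 CPM in control and 44.6, 36.7 and 38.4 CPM in vitamin C, with the first vitamin C library highest. All vitamin C values were above the controls, at a log2 fold change of 0.27 ± 0.09 (SE, n = 3 per group; edgeR adjusted p = 0.0931). Genes on the opposite strand share 28.1% of the WIPI1 exon bases, and whether counting used the strand is not stated, so part of this value is uncertain. The related reader WIPI2 was at 68.4 to 72.6 CPM against 72.2 to 73.4 CPM, a log2 fold change of 0.04.

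The conjugation system had 8 genes, of which 0 passed, with 5 estimates below 0 and 3 above. ATG3 (chr3:112532510-112562046), the enzyme that transfers LC3 and its relatives to lipid, had the smallest adjusted p of all 36 members. It was at 130.4, 121 and 127 CPM in control libraries and 113, 104 and 102 CPM in vitamin C libraries. The groups did not overlap. The log2 fold change was -0.25 ± 0.07 (SE, n = 3 per group), with a 95% interval of -0.41 to -0.09 and an edgeR adjusted p of 0.0619. DESeq2 gave an adjusted p of 0.0334, and over 15 alternatives the adjusted p ran from 0.0334 to 0.178. ATG5 (chr6:106045423-106325791), part of the ligase that completes this transfer, was at 61.7, 59.3 and 55.4 CPM against 52.6, 41.6 and 55.1 CPM. Its vitamin C libraries were all below the controls, the last by a narrow margin, while the second was far lower than the rest. The log2 fold change was -0.24 ± 0.10 (SE, n = 3 per group; edgeR adjusted p = 0.165), and -0.13 without the second vitamin C library.

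Among the other conjugation genes, ATG12, the ubiquitin-like partner of ATG5, was at 88.7 to 93.1 CPM in control and 82.2 to 84.0 CPM in vitamin C, without overlap and at a log2 fold change of -0.12. ATG7, the activating enzyme of both conjugation arms, ATG10, the conjugating enzyme for ATG12, and ATG16L1, which places the ligase on the membrane, had log2 fold changes of -0.07, 0.07 and 0.04. The proteases ATG4A and ATG4B, which trim ATG8 proteins, were at 0.10 and -0.18. All 5 of these genes overlapped between the groups. Other genes share 18.1% of the ATG7 exon bases.

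**Figure D3:**
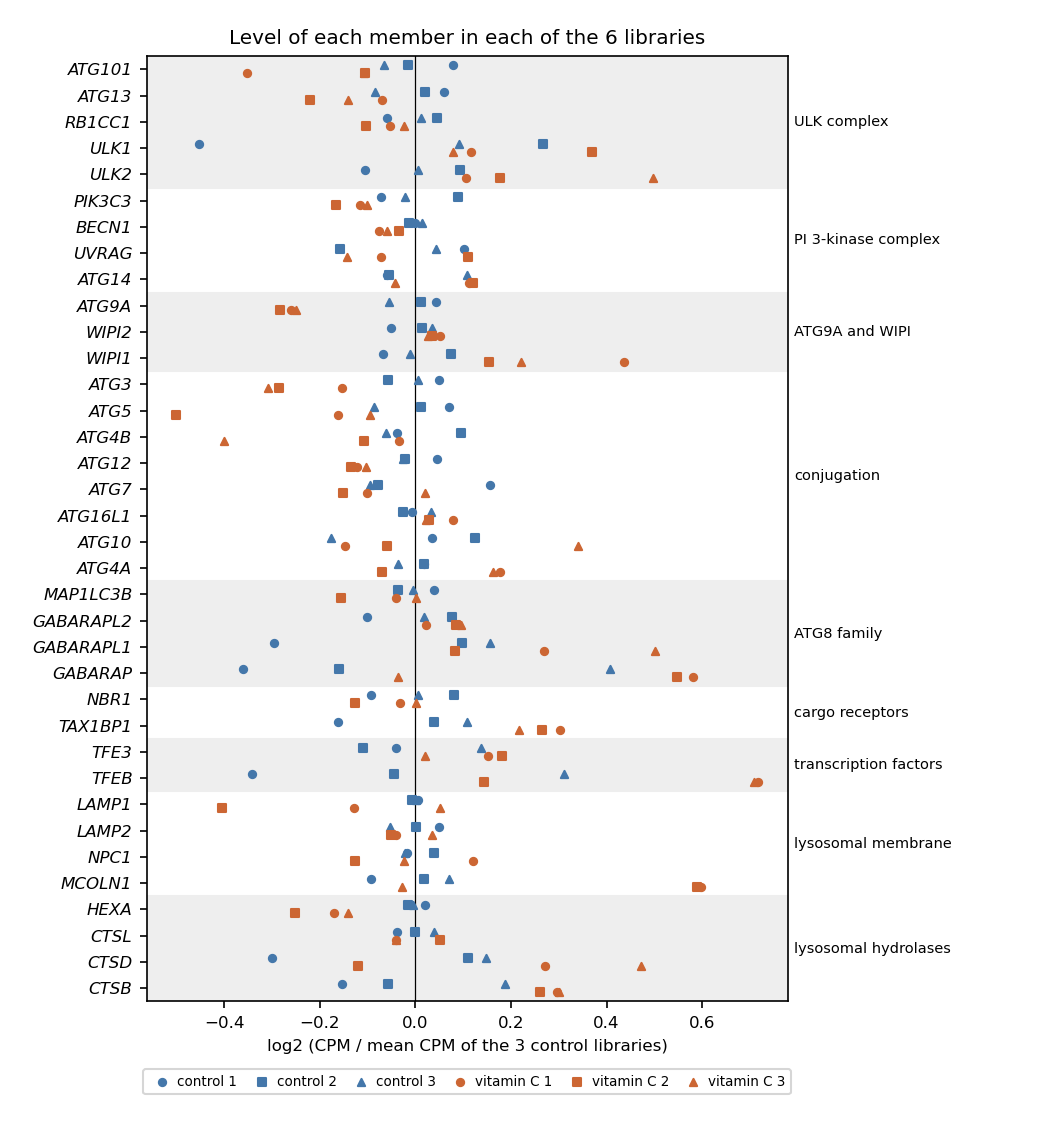
Level of each member in each of the 6 libraries, as log2 of its CPM over the mean of the 3 control libraries (x axis), with control libraries in blue and vitamin C libraries in orange, grouped by role. ATG9A, ATG3 and ATG12 show all vitamin C points left of the controls, TAX1BP1 and WIPI1 show them to the right, and MCOLN1 has the third vitamin C library among its controls.

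No ATG8 family gene passed, and the groups overlapped for all 4. GABARAPL2 (chr16:75566375-75577881) was the most abundant per length. It was at 19.9, 22.6 and 21.6 CPM in control and 21.7, 22.7 and 22.8 CPM in vitamin C, a log2 fold change of 0.07 ± 0.09 (SE, n = 3 per group; edgeR adjusted p = 0.668). MAP1LC3B encodes LC3B, the protein most used to follow autophagosomes. Its transcript was at 38.4 to 40.5 CPM in control and 35.4 to 39.4 CPM in vitamin C, and the interval of its log2 fold change, -0.24 to 0.12, excluded a 1.25-fold rise or fall. GABARAPL1 (11.0 to 15.0 against 14.3 to 19.1 CPM) had a log2 fold change of 0.30. GABARAP, at 1.08 to 1.84 against 1.35 to 2.08 CPM, shares 48.2% of its exon bases with other genes in the count files, and reads there are ambiguous between genes, so its level and its log2 fold change of 0.36 ± 0.28 (SE, n = 3 per group) are uncertain.

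Of the 2 cargo receptors, TAX1BP1 (chr7:27739331-27844564) was the member with most reads. It binds ubiquitinated cargo and ATG8 proteins. TAX1BP1 was at 336, 386 and 405 CPM in control libraries and 463, 452 and 437 CPM in vitamin C libraries. The groups did not overlap, and the first control library was the lowest. The log2 fold change was 0.26 ± 0.08 (SE, n = 3 per group), with a 95% interval of 0.08 to 0.44 and an edgeR adjusted p of 0.0702. DESeq2 placed it just past the threshold, at an adjusted p of 0.0490, within a range of 0.0490 to 0.232 over 15 alternatives. NBR1, which binds the same kind of cargo, was at 268 to 303 CPM against 262 to 286 CPM, a log2 fold change of -0.05.

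Neither transcription factor passed. TFE3 (chrX:49028726-49043410) was the more abundant, at 48.9, 46.6 and 55.3 CPM in control and 55.8, 56.9 and 50.9 CPM in vitamin C. The groups overlapped, at a log2 fold change of 0.12 ± 0.09 (SE, n = 3 per group; edgeR adjusted p = 0.414). TFEB (chr6:41683978-41736259) was at 2.28, 2.80 and 3.58 CPM in control and 4.74, 3.19 and 4.72 CPM in vitamin C. The second vitamin C library lay below the highest control. Its log2 fold change of 0.55 ± 0.22 (SE, n = 3 per group) was the largest of the list, with a 95% interval of 0.07 to 1.03, and its edgeR adjusted p was 0.132.

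The lysosomal membrane group had 4 genes, of which 0 passed. LAMP1 (chr13:113297239-113323672), a major glycoprotein of this membrane, was at 169.8, 168 and 169 CPM in control and 155, 128 and 175 CPM in vitamin C. The control libraries were nearly equal and the vitamin C libraries lay on both sides of them, so the log2 fold change of -0.15 ± 0.10 (SE, n = 3 per group; edgeR adjusted p = 0.373) moved with single libraries. It was -0.04 without the second vitamin C library and -0.26 without the third, with edgeR adjusted p of 0.825 and 0.0714. LAMP2, its relative, was at 292 to 313 CPM against 292 to 310.2 CPM. NPC1, the cholesterol transporter, was at 121 to 127 CPM against 113 to 134 CPM. Their log2 fold changes were -0.02 and -0.01.

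MCOLN1, the calcium channel of the lysosome, depended on 1 library. It was at 5.47, 5.90 and 6.12 CPM in control and 8.82, 8.77 and 5.72 CPM in vitamin C. The first and second vitamin C libraries were above all controls and the third was among them. With all libraries the log2 fold change was 0.40 ± 0.18 (SE, n = 3 per group; edgeR adjusted p = 0.175). Without the third vitamin C library it was 0.59, with an edgeR adjusted p of 0.0247, in a range of 0.0247 to 0.412 over 15 alternatives.

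The lysosomal hydrolases CTSB, CTSD, CTSL and HEXA had 2 estimates above 0 and 2 below, and 0 passed. CTSB (chr8:11842524-11869533), a cysteine protease, was at 143, 153 and 181 CPM in control libraries and 196, 191 and 196 CPM in vitamin C libraries. All vitamin C libraries were above the controls and close to each other, while the third control was nearest to them. The log2 fold change was 0.29 ± 0.09 (SE, n = 3 per group), with a 95% interval of 0.09 to 0.48 and an edgeR adjusted p of 0.0694. Without the third control library it was 0.39 with an edgeR adjusted p of 0.0334, and over 15 alternatives the adjusted p ran from 0.0334 to 0.232. CTSL (chr9:87724051-87731469), also a cysteine protease and the most abundant of the 4 per length, was at 113, 116 and 119 CPM against 113, 120.3 and 113 CPM. These overlapped throughout, and the interval of the log2 fold change, -0.16 to 0.14, excluded a 1.25-fold rise or fall. CTSD, an aspartic protease, was at 54.1 to 73.8 CPM against 61.4 to 92.4 CPM, but shares 48.0% of its exon bases with other genes in the files, so its value is uncertain. HEXA, the alpha subunit of beta-hexosaminidase, was at 30.3 to 31.0 CPM against 25.7 to 27.8 CPM, without overlap, at a log2 fold change of -0.19 and an edgeR adjusted p of 0.172, and shares 16.7% of its exon bases with other genes.

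Of 36 members, 5 passed under at least 1 of 15 alternatives, namely ATG3, ATG9A, CTSB, TAX1BP1 and MCOLN1, and 31 passed under none. The share of all genes that passed under at least 1 alternative was not counted, so the 5 cannot be called many or few. The estimate kept its sign under every alternative for 29 members.

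**Figure D4:**
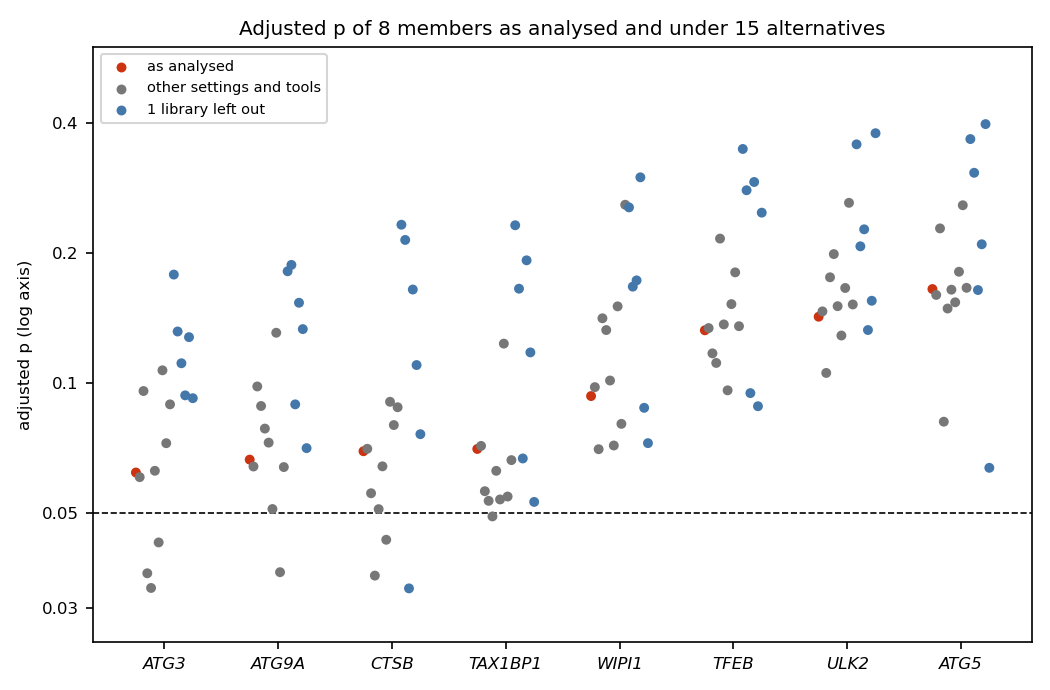
Adjusted p (log axis) of the 8 members with the smallest p, as analysed (red), under other settings and tools (grey) and with 1 library left out (blue); the dashed line is 0.05. Only ATG3, ATG9A, CTSB and TAX1BP1 have points below the line, and none of the 8 has its red point there.

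Other genes of the pathway were counted from 3 further lists. Of 36 further autophagy genes, 0 passed the edgeR test, beside 7.08% of all genes. At an unadjusted p under 0.05, 8 were higher (22.2%, beside 14.3% of all genes) and 2 lower (5.56%, beside 13.1%). DESeq2 called 1 higher, where it called 4.35% of the genes it tested higher. No test of these differences was made. The median log2 fold change of these 36 genes was 0.07. The most abundant of them per length were VMP1, a scramblase gene needed for autophagosome formation, and VAMP8. The VAMP8 protein acts in the fusion of the autophagosome with the lysosome. VMP1 had a mean of 570.2 ± 75.6 CPM in control and 553 ± 56.1 CPM in vitamin C (SD, n = 3), and VAMP8 had 74.6 ± 5.47 and 87.0 ± 6.41 CPM (SD, n = 3). Their edgeR adjusted p was 0.819 and 0.117.

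In 64 tested genes of 66 further lysosomal genes, 5 rose and 1 fell, of which DESeq2 also called 4 and 1, and the median log2 fold change was -0.03. The 6 called were 9.38% of the list, beside 7.08% of all genes. DESeq2 called 8 of the list higher and 5 lower, where it called 4.35% of the genes it tested higher and 6.36% lower. No test of these differences from all genes was made. At an unadjusted p under 0.05 there were 12 higher (18.8%, beside 14.3% of all genes) and 13 lower (20.3%, beside 13.1%). GALC, which breaks down galactosylceramide, was at 36.7, 40.5 and 39.1 CPM in control and 48.7, 51.8 and 54.3 CPM in vitamin C, a log2 fold change of 0.41 ± 0.08 (SE, n = 3 per group; edgeR adjusted p = 0.0196). CTSA, a protease that protects other lysosomal enzymes, was at 130.5, 144 and 154 CPM against 203, 291 and 191 CPM, 0.67 ± 0.14 (SE, n = 3 per group; edgeR adjusted p = 0.0223), though it shares 21.5% of its exon bases with other genes. For both genes the groups stood clear of each other, but both lost the call without the first or the second control library, with edgeR adjusted p of 0.0670 to 0.108. GM2A and PSAP, which encode activator proteins for the breakdown of sphingolipids, had log2 fold changes of 0.34 and 0.36, with edgeR adjusted p of 0.0373 and 0.0452, and each lost the call in most fits with 1 library left out. The call of PSAP was also lost with the replicate number as a block, at an edgeR adjusted p of 0.0629. GNPTAB, which makes the mannose 6-phosphate tag of lysosomal enzymes, and the protease gene CTSC were the other two, at 0.26 and -0.35, and were named after their values were seen. The count of 6 was 0 without the first or the second control library and 15 without the third vitamin C library.

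Among 33 tested genes of 35 nutrient-sensing genes, 0 rose and 2 fell (6.06%, beside 7.08% of all genes), which DESeq2 also called, and the median log2 fold change was -0.08. PRKAA2, a catalytic subunit of the energy sensor AMPK, was at 40.9, 42.4 and 37.2 CPM in control and 32.5, 29.5 and 31.3 CPM in vitamin C, a log2 fold change of -0.37 ± 0.09 (SE, n = 3 per group; edgeR adjusted p = 0.0333). RRAGD, a small GTPase that brings mTORC1 to the lysosome, was at 53.4, 56.9 and 52.0 CPM against 43.1, 39.8 and 44.8 CPM, -0.35 ± 0.08 (SE, n = 3 per group; edgeR adjusted p = 0.0334). No vitamin C library reached a control in either gene. Both calls were lost, so that the count was 0, without the first or second library of either group and with the replicate number as a block. Their adjusted p ran from 0.00460 to 0.125 for PRKAA2 and from 0.00514 to 0.126 for RRAGD over 15 alternatives.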

How the data were processed

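Total RNA was depleted of ribosomal RNA and sequenced in pairs. Per the labels, the authors used CASAVA 1.4, Trim Galore and STAR with hg38, and deposited raw counts per Ensembl gene identifier. For STAR no version was found in the sources used here, nor whether counting used the strand. Lines that name no gene (50.6% to 69.7% of read pairs, unmapped pairs the largest part) were left out. Symbols, GRCh38 positions and transcript lengths came from GENCODE 44, which held 56558 of the identifiers.

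Genes were kept by filterByExpr (minimum count 10), scaled by TMM (factors 0.972 to 1.02) and compared with edgeR 4.0.16's quasi-likelihood test in R 4.3.3, all 6 libraries without covariates, with Benjamini-Hochberg adjustment over 15261 genes and a threshold of 0.05. Alternatives included DESeq2 1.42.0 and limma-voom 3.58.1. CPM values are counts over the TMM-scaled library totals over the tested genes. The biological coefficient of variation was 9.40%. On simulated counts of this comparison (15072 genes), edgeR found 76.1% of the genes changed 1.5-fold and 98.5% of those changed 2-fold, and 13 of its 196 calls were false. Named genes were the 8 members with the smallest p, the most abundant member of each role, and in each other list up to 4 called genes or, where none was called, the 2 most abundant. Members and lists were chosen with earlier results of these data known.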

Additional observations from a re-analysis of the deposited data

How the results depend on the processing

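Members called higher were 0 as analysed and also with DESeq2's size factors, upper-quartile factors, limma-voom, thinned libraries and GC content and length offsets. They were 1 without a filter on low counts, with DESeq2 and with the edgeR likelihood ratio test, 3 at an adjusted p under 0.1, and 0 to 1 when 1 library was left out. Members called lower were 1 without the filter, with DESeq2, with the likelihood ratio test and with the GC content and length offsets, 2 at an adjusted p under 0.1, and 0 whichever library was left out. The share of all genes at an adjusted p under 0.1 was not counted. Members called by both tools were 0, and 1 without the filter, and 0 to 1 with 1 library left out. The median log2 fold change of the members was -0.01, 0.029 with upper-quartile factors, and -0.01 to 0.01 with 1 library left out. Further autophagy genes called were 0, but 2 without the filter, 1 with DESeq2 and 1 with the likelihood ratio test, and 0 to 4 with 1 library left out, the 4 without the third vitamin C library. Further lysosomal genes called were 6, but 19 without the filter, 13 with DESeq2, 15 with the likelihood ratio test and 0 to 15 with 1 library left out. Nutrient-sensing genes called were 2, and 0 to 3 with 1 library left out. Over all genes the count was 1080, 2245 without the filter, 1982 with the likelihood ratio test and 128 to 1900 with 1 library left out, lowest without the first control library. Upper-quartile factors gave 687 higher and 377 lower in place of 549 and 531, and no scaling moved the median of all genes by over 0.1. Why the counts moved was not tested.

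Replicate numbers are shared by the groups, but same-numbered libraries did not deviate together (correlations of -0.016, -0.056 and -0.045). No library correlated best with its own number, so the numbers were not taken to pair them. With the replicate number as a block, 0 members were called higher and 0 lower, 1 further autophagy gene, 5 further lysosomal genes, 0 nutrient-sensing genes and 731 of all genes.

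The sign of 24 values of 8 genes changed, all at an adjusted p of 0.670 or more. With upper-quartile factors the log2 fold change became 0.0064 for UVRAG, 0.020 for LAMP2, 0.030 for NPC1 and 0.028 for CTSL. With the GC content and length offsets it became -0.018 for WIPI2, 0.035 for LAMP2, 0.0089 for CTSL and 0.0089 for VMP1. With thinned libraries it became 0.012 for NPC1 and 0.0098 for CTSL. Over the fits with 1 library left out it ran from -0.109 to 0.023 for UVRAG, -0.125 to 0.0097 for ATG7, -0.104 to 0.163 for ATG10, -0.049 to 0.0055 for LAMP2, -0.076 to 0.047 for NPC1, -0.041 to 0.0058 for CTSL and -0.145 to 0.047 for VMP1.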

Other observations

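The 13 tested ATP6V subunits of the vacuolar proton pump, which acidifies the lysosome, were taken from the further lysosomal genes after their values were seen, so they are described without a test of the set. The pump's accessory genes ATP6AP1 and ATP6AP2, at log2 fold changes of 0.07 and -0.31, were tested but are not among these 13. As single genes, 0 of the 13 passed the edgeR test. Their estimates were below 0 for 11 subunits and above 0 for 2, with a median log2 fold change of -0.17, beside 0.02 for all genes, and 6 were lower and 0 higher at an unadjusted p under 0.05. Over all genes, 7996 of 15261 estimates were above 0, and 13.1% of genes were lower and 14.3% higher at that p. Summed, they were at 1070, 1013 and 957 CPM in the control libraries and 902, 895 and 950.1 CPM in the vitamin C libraries, so that every vitamin C library was below every control, the third only by a small margin. The count below 0 was 9 with upper-quartile factors and with GC content and length offsets, and DESeq2 called 2 subunits lower, ATP6V1B2 and ATP6V0E1. ATP6V1B2, a subunit of the cytosolic part of the pump and the one with the smallest p, was at 97.5, 84.9 and 81.9 CPM in control and 74.1, 71.9 and 70.5 CPM in vitamin C, at an edgeR adjusted p of 0.0552.

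The other 31 tested lysosomal enzymes did not share this sign, with 17 estimates above 0 and 14 below, and a median log2 fold change of 0.03. At an unadjusted p under 0.05, 8 were higher and 3 lower, beside 14.3% and 13.1% of all genes. No test of this set was made. The 31 enzymes summed to 1680, 1781 and 1792 CPM in control and 1859, 1837 and 1941 CPM in vitamin C, so that every vitamin C library was above every control. The first control library was the lowest of the 6 in both this sum and the sum of the 36 members, and the highest of the 6 in the sum of the pump subunits.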
